A study of Mus musculus with 18 samples.

Results

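The genes described here are the 7 subunit genes of AMP-activated protein kinase (AMPK), the 2 PGC-1 coactivator genes Ppargc1a and Ppargc1b, and Stk11, which encodes the upstream kinase LKB1. They are 10 of the 46725 genes counted, and all 10 passed the filter on low counts in both muscles. They were chosen by name for their known roles, with earlier results of these data known. Their exons were cut into 199 of the 391858 counted exon bins, a bin being a stretch of exon that belongs to the same set of annotated transcripts.

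RNA-seq was carried out on polyA-selected RNA of gastrocnemius and quadriceps muscle from 3 groups of FVB mice aged 20 weeks, giving 18 libraries, with 3 mice per group. Wild-type (WT) FVB mice and HSA-LR mice, which are transgenic on the same strain, were untreated, and the Pip6a-PMO group was made up of HSA-LR mice given Pip6a-PMO intravenously. The HSA-LR transgene is a human skeletal actin gene with an expanded CTG repeat in its 3′ UTR, and because the actin promoter drives it in skeletal muscle the mice model the muscle side of myotonic dystrophy type 1 and not its other organs. Pip6a-PMO is a cell-penetrating peptide joined to a morpholino antisense oligonucleotide made of CAG repeats, which binds the CUG repeat of the transgene RNA.

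AMPK senses a low energy state. It is a trimer of a catalytic alpha subunit, a beta subunit that holds the complex together and binds glycogen, and a gamma subunit that binds AMP, and LKB1 activates it by phosphorylating the alpha subunit. PGC-1 alpha and PGC-1 beta are transcriptional coactivators that drive mitochondrial and oxidative genes in muscle, and PGC-1 alpha is itself a target of AMPK.

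Total counts per library ran from 98916844 to 143135976, and the members took from 364 counts (Ppargc1b) to 60048 counts (Prkab2) in a library. Levels are given as CPM, the usual scaling of counts to the library total, with that total scaled by TMM, a normalization that sets the bulk of genes equal between libraries. The labelled tissue fitted its markers: Ckm, Acta1, Myh4, Ttn, Des and Pygm summed to between 106005 and 179544 CPM in each library. By its label WT mouse 2 is female, yet Eif2s3y, Uty, Kdm5d and Ddx3y, genes of the Y chromosome, reached a sum of 153 CPM in its gastrocnemius and 188 CPM in its quadriceps. In WT mouse 3, labelled male, the sums were 1.14 and 1.43 CPM. Calls between HSA-LR and WT mice are therefore also given without these mice, where 1 WT library per muscle is left and is assumed to vary like the other groups.

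In gastrocnemius, 5 of the 10 genes differed between HSA-LR and WT mice at an adjusted P under 0.1, beside 15.5% of the 15625 genes tested. Prkab2, Prkag2, Prkag1 and Prkab1 fell, where 6.94% of all genes fell, and Ppargc1b rose, where 8.6% rose. In quadriceps the count was also 5 of 10, beside 20.3% of 15574 genes. Prkab2, Prkag1, Prkaa2 and Stk11 fell, beside 9.31% of all genes, and Prkaa1 rose, beside 11%. All 3 HSA-LR libraries lay below all 3 WT libraries for 6 genes in gastrocnemius and 5 in quadriceps, as they did for 16.5% and 16.1% of all genes, and above them for 1 and 2 genes, as for 19.8% and 17.1% of all genes. The median log2 change of the 10 genes was -0.35 in gastrocnemius and -0.31 in quadriceps, against -0.010 and 0.0053 over all genes. Because the genes were chosen with earlier results of these data known, no excess over all genes can be read from such counts and medians, here or below. Without WT mice 2 and 3 fewer members were called in both muscles, and fewer of all genes as well. The called changes kept their direction, at log2 -1.30 (Prkab2), -1.06 (Prkag2), -0.29 (Prkag1), -0.48 (Prkab1) and 0.84 (Ppargc1b) in gastrocnemius. In quadriceps they were log2 -0.95 (Prkab2), -0.44 (Prkag1), -0.145 (Prkaa2), -0.34 (Stk11) and 0.32 (Prkaa1). Since these are bulk samples, less RNA per fiber cannot be told apart from fewer fibers of a kind. In quadriceps the fiber markers summed to 108929 to 124668 CPM in HSA-LR and 125850 to 148350 CPM in WT mice. Endothelial markers summed to 139 to 176 against 209 to 278 CPM, and Schwann cell markers to 47.8 to 69.6 against 85.8 to 109.6 CPM. Smooth muscle markers were also lower, and fibroblast (777 to 828 against 492.5 to 629.5 CPM) and macrophage markers higher. The part of the cell mix in these changes was not tested.

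Between Pip6a-PMO and untreated HSA-LR mice, 4 of the 10 genes differed in gastrocnemius, beside 10% of all genes, and 5 in quadriceps, beside 13.8%. Prkab2 and Prkag1 rose and Ppargc1b fell in both muscles. Stk11 rose in gastrocnemius, and Prkaa2 and Ppargc1a rose in quadriceps. Of all genes, 4.49% rose and 5.53% fell in gastrocnemius, and 6.54% rose and 7.22% fell in quadriceps. The treated libraries all lay above the untreated HSA-LR libraries for 4 members in gastrocnemius and 5 in quadriceps, beside 13.2% and 15.4% of all genes, and all below them for 1 and 2 members, beside 16.1% and 16.5%. Between Pip6a-PMO and WT mice, Prkag2 was the 1 gene called in gastrocnemius, beside 1.04% of all genes, and 0 were called in quadriceps, beside 1.41%. In quadriceps 0 members had an unadjusted p under 0.05, beside 1947 of 15574 genes, and DESeq2 also called 0, beside 748 of all genes. The comparisons of a muscle share their 9 libraries, HSA-LR mice standing in both of the first pair, so a fall in one and a rise in the other are not independent.

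**Figure D1:**
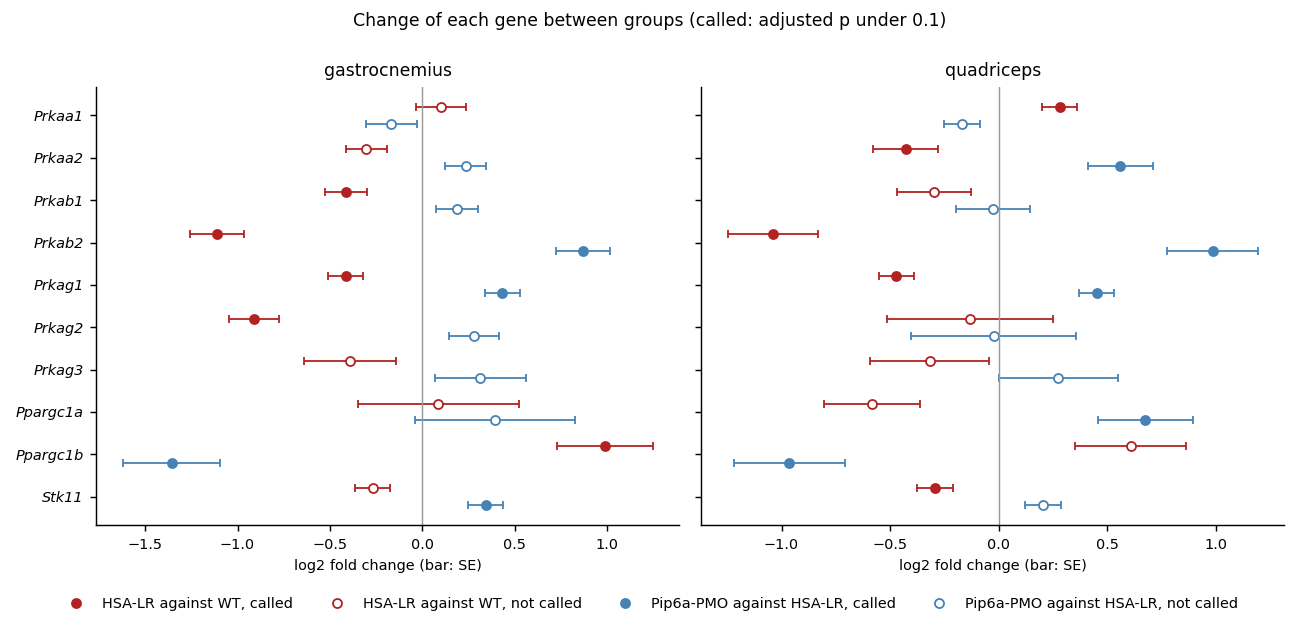
Log2 fold change of each gene (horizontal axis, bars show the standard error) in HSA-LR against WT mice (red) and Pip6a-PMO against HSA-LR mice (blue), for gastrocnemius (left) and quadriceps (right), with filled circles for an adjusted P under 0.1. Prkab2 and Prkag1 have filled red circles left of 0 and filled blue circles right of 0 in both muscles, and Ppargc1b has filled blue circles left of 0 in both.

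Prkab2, which encodes the beta-2 subunit found mainly in skeletal muscle, showed the largest fold of the called AMPK genes. In gastrocnemius it was at 429, 387 and 322 CPM in the WT mice, 171, 178 and 183 CPM in the HSA-LR mice, and 262, 379 and 325 CPM in the Pip6a-PMO mice. The HSA-LR libraries lay together, far below both other groups, which overlapped each other. Prkab2 was 2.16-fold lower in HSA-LR than in WT gastrocnemius (log2 -1.11 ± 0.15 SE, n = 3 per group, edgeR adjusted P = 0.0022), and 1.83-fold higher with Pip6a-PMO than without (log2 0.87 ± 0.15, edgeR adjusted P = 0.014). In quadriceps the WT mice had 399, 523 and 350 CPM, the HSA-LR mice 170, 192 and 255 CPM, and the Pip6a-PMO mice 378, 343 and 498 CPM. Again no HSA-LR library reached the other groups. The quadriceps changes were log2 -1.04 ± 0.21 (edgeR adjusted P = 0.013) and log2 0.99 ± 0.21 (edgeR adjusted P = 0.029).

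Both gastrocnemius calls of Prkab2 held in all 9 fits that each left out 1 library, with an edgeR adjusted P of at most 0.014 for HSA-LR against WT and 0.065 for Pip6a-PMO against HSA-LR. In quadriceps the fall in HSA-LR mice held in all 9 such fits and missed the threshold without WT mice 2 and 3 (log2 -0.95, edgeR adjusted P = 0.11). The rise with Pip6a-PMO missed it without HSA-LR mouse 1 (edgeR adjusted P = 0.11) and with the 5′ to 3′ coverage of each library as a covariate (log2 0.93, edgeR adjusted P = 0.12).

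Prkab1, the gene of the more widely expressed beta-1 subunit, was at 14.5, 14.0 and 13.2 CPM in WT gastrocnemius, 11.5, 11.4 and 8.75 CPM in HSA-LR, and 11.4, 12.2 and 12.2 CPM in Pip6a-PMO gastrocnemius. All HSA-LR libraries lay below all WT libraries, and the treated ones overlapped the HSA-LR ones. The fall was log2 -0.41 ± 0.11 (edgeR adjusted P = 0.051), with an adjusted P of 0.21 without WT mice 2 and 3, and was lost in 3 of 9 left-out fits (without WT mouse 1 or 2, or HSA-LR mouse 3). The quadriceps levels, 13.2 to 14.9 CPM in WT, 8.28 to 13.4 CPM in HSA-LR and 10.3 to 12.2 CPM in Pip6a-PMO mice, gave no call.

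**Figure D2:**
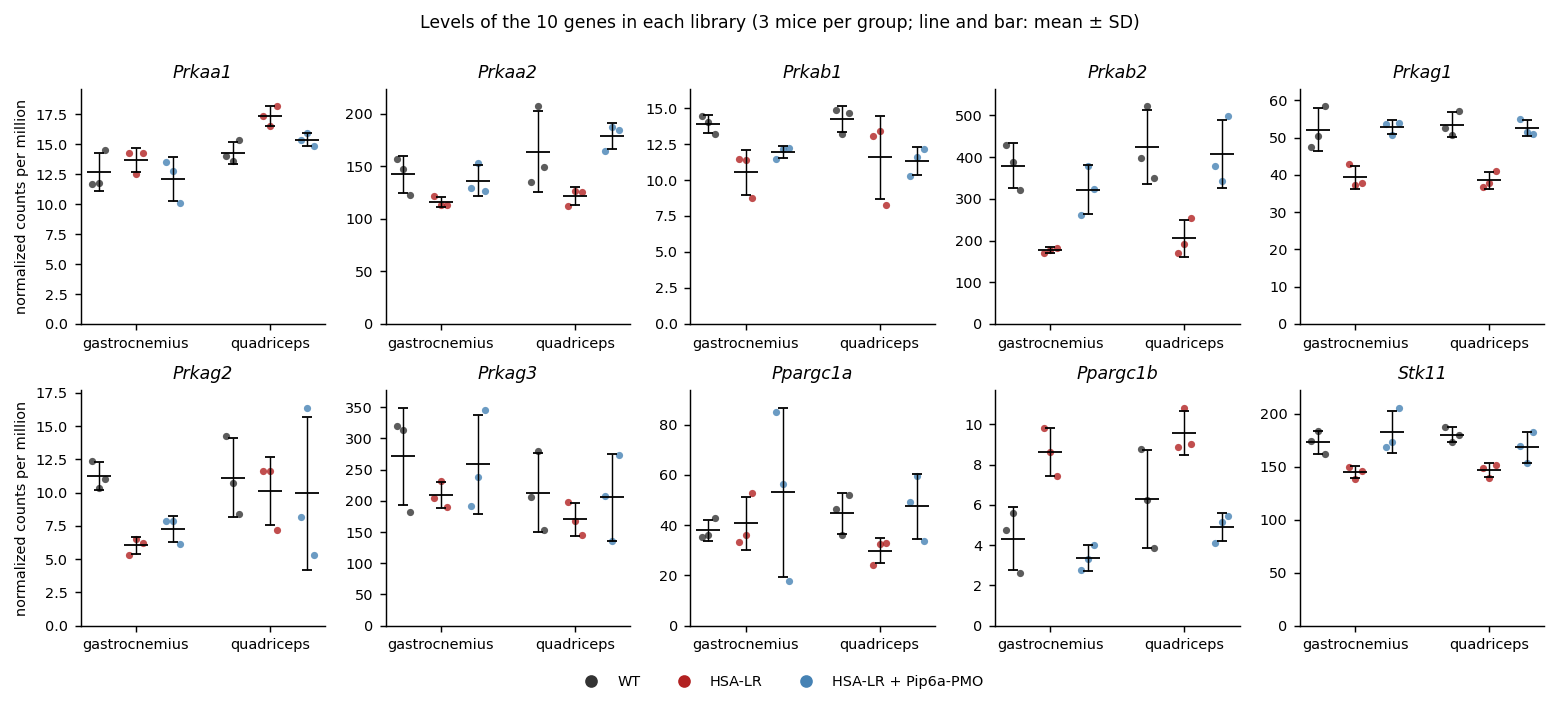
TMM-scaled CPM (vertical axis) of each of the 10 genes in every library, by muscle, for WT (black), HSA-LR (red) and Pip6a-PMO (blue) mice, 1 dot per mouse, with the mean and SD as a line and bar. For Prkab2 the 3 HSA-LR dots sit at 171 to 183 in gastrocnemius and 170 to 255 in quadriceps, below every other dot of their muscle.

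Prkag1 encodes the gamma-1 subunit, found in most tissues. Its gastrocnemius levels were 47.4, 50.4 and 58.5 CPM in WT, 42.8, 37.4 and 37.9 CPM in HSA-LR, and 53.8, 50.8 and 54.1 CPM in Pip6a-PMO mice. In quadriceps they were 52.6, 50.7 and 57.2 CPM in WT, 36.8, 37.8 and 41.0 CPM in HSA-LR, and 55.1, 51.6 and 51.0 CPM in Pip6a-PMO mice. In each muscle the HSA-LR libraries were the lowest and the treated libraries overlapped the WT ones.

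The fall of Prkag1 in HSA-LR mice was log2 -0.42 ± 0.095 in gastrocnemius (edgeR adjusted P = 0.025) and log2 -0.47 ± 0.082 in quadriceps (edgeR adjusted P = 0.0070). The rise with Pip6a-PMO was log2 0.43 ± 0.095 (edgeR adjusted P = 0.034) and log2 0.45 ± 0.082 (edgeR adjusted P = 0.017). Both quadriceps calls held in all 9 left-out fits, and the fall also held without WT mice 2 and 3 (edgeR adjusted P = 0.082). In gastrocnemius the fall was lost without HSA-LR mouse 2 (edgeR adjusted P = 0.10) and without WT mice 2 and 3 (log2 -0.29, edgeR adjusted P = 0.28), and the rise without HSA-LR mouse 2 or 3 (edgeR adjusted P up to 0.15).

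Prkag2, the gene of the gamma-2 subunit, had with Ppargc1b the lowest levels per kb of exon. It was at 12.4, 10.3 and 11.1 CPM in WT gastrocnemius, 5.34, 6.54 and 6.23 CPM in HSA-LR, and 7.84, 7.86 and 6.16 CPM in Pip6a-PMO gastrocnemius. The WT libraries stood above both HSA-LR groups, which overlapped. The fall in HSA-LR mice was log2 -0.91 ± 0.13 (edgeR adjusted P = 0.0036), held in all 9 left-out fits and was log2 -1.06 without WT mice 2 and 3 (edgeR adjusted P = 0.030). The difference between Pip6a-PMO and WT mice, log2 -0.63 ± 0.13 (edgeR adjusted P = 0.097), was lost in all 9 left-out fits.

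Prkag2 in quadriceps gave 14.3, 10.7 and 8.38 CPM in WT, 11.6, 11.6 and 7.21 CPM in HSA-LR, and 8.14, 16.4 and 5.34 CPM in Pip6a-PMO mice. The groups overlapped, and no comparison was called. The change between HSA-LR and WT mice was log2 -0.13 ± 0.38 there, and the difference of the changes between muscles was log2 -0.77 ± 0.44 (edgeR adjusted P = 1.0), so a difference between the muscles was not shown. The test of this difference did not pair the muscles by mouse.

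Prkag3 encodes the gamma-3 subunit, which is characteristic of fast glycolytic fibers. Its levels spread widely within groups, with 319, 313 and 182 CPM in WT, 204, 231 and 191 CPM in HSA-LR and 191, 238 and 346 CPM in Pip6a-PMO gastrocnemius. In quadriceps it ran from 153 to 280 CPM in WT, 145 to 198 CPM in HSA-LR and 135 to 273 CPM in Pip6a-PMO mice. The groups overlapped in each comparison and none was called.

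Prkaa2, the gene of the alpha-2 catalytic subunit that predominates in muscle, was at 135, 207 and 149 CPM in WT quadriceps, 112, 127 and 126 CPM in HSA-LR, and 165, 188 and 184 CPM in Pip6a-PMO quadriceps. The HSA-LR libraries were the lowest. The fall was log2 -0.43 ± 0.15 (edgeR adjusted P = 0.095) and the rise with Pip6a-PMO log2 0.56 ± 0.15 (edgeR adjusted P = 0.059). The fall was called in 1 of 9 left-out fits and was log2 -0.15 without WT mice 2 and 3. It was called with the coverage covariate (log2 -0.50, edgeR adjusted P = 0.0385). It was not called with the slow-fiber marker level of each library as a covariate (log2 -0.48, edgeR adjusted P = 0.115). The rise was called in 4 of 9 left-out fits. It was not called with the coverage covariate (log2 0.38, edgeR adjusted P = 0.20) or the slow-fiber covariate (log2 0.64, edgeR adjusted P = 0.13).

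In gastrocnemius Prkaa2 was at 157, 147 and 123 CPM in WT, 122, 114 and 113 CPM in HSA-LR, and 129, 153 and 126 CPM in Pip6a-PMO mice. The HSA-LR libraries were again the lowest, and the changes, log2 -0.30 ± 0.11 (edgeR adjusted P = 0.12) and log2 0.24 ± 0.11 (edgeR adjusted P = 0.25), missed the threshold. With the coverage covariate the fall passed it (log2 -0.34, edgeR adjusted P = 0.070). This fall was that of the long last exon, and the remaining exons of the gene were higher in HSA-LR than in WT gastrocnemius, as described with the exon bins.

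Prkaa1, the gene of the alpha-1 subunit, was at 14.0, 13.6 and 15.3 CPM in WT, 17.4, 16.5 and 18.2 CPM in HSA-LR and 15.3, 15.9 and 14.9 CPM in Pip6a-PMO quadriceps. The HSA-LR libraries were the highest, by log2 0.28 ± 0.082 against WT (edgeR adjusted P = 0.053), or 0.32 without WT mice 2 and 3 (edgeR adjusted P = 0.21), and the call was lost in 4 of 9 left-out fits. Macrophage markers moved the same way: the summed level of Adgre1, Cd68, Csf1r, Cd163 and Mrc1 was 53.9 to 68.1 CPM in HSA-LR quadriceps, against 21.7 to 36.2 CPM in WT and 24.1 to 35.5 CPM in Pip6a-PMO mice, and 0 of the 5 markers were at 0. The part of these cells in the Prkaa1 level was not tested. In gastrocnemius, where the macrophage sum was 49.4 to 53.1 CPM in HSA-LR and 34.7 to 46.5 CPM in WT mice, the Prkaa1 groups overlapped (10.1 to 14.5 CPM over all 9 libraries).

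Set side by side per kb of exon, the muscle paralogs made up most of their class. Prkaa2 took 79.0% to 89.9% of the alpha subunit counts per kb, and Prkab2 88.7% to 96.1% of the beta counts per kb, over the 18 libraries. Of the gamma counts per kb, Prkag3 took 52.1% to 73.9%, Prkag1 24.5% to 44.7% and Prkag2 0.745% to 3.59%. The shares depend on the scale: in summed counts not divided by length Prkag1 took 12.5% to 26.1% and Prkag2 1.52% to 8.08%, and in the largest bin per kb Prkag2 took 1.57% to 6.75%. The order of the paralogs within a class was the same in every library on these 3 scales. Prkaa2 without its long last exon was still above Prkaa1 without its largest bin, per kb, in 16 of 18 libraries, and below it in WT mouse 3 gastrocnemius (3.09 against 4.58 CPM per kb) and HSA-LR mouse 1 quadriceps (4.25 against 5.79 CPM per kb).

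The Prkab2 share of the beta class was 94.2% ± 0.55 (SD, n = 3) in WT, 91.0% ± 1.4 in HSA-LR and 94.1% ± 0.85 in Pip6a-PMO gastrocnemius. The Prkaa2 share of the alpha class was 86.6% ± 2.8, 80.3% ± 1.4 and 87.1% ± 0.82 in quadriceps. In these muscles the HSA-LR libraries did not overlap either other group. In the other muscle they overlapped WT: the Prkab2 share was 88.7% to 94.9% in HSA-LR and 93.5% to 96.0% in WT quadriceps, and the Prkaa2 share 82.2% to 84.2% in HSA-LR and 83.2% to 88.7% in WT gastrocnemius. Of 48 comparisons of a paralog or first-exon share, 6 did not overlap, each with a two-sided exact permutation P of 0.1, the smallest that 3 against 3 mice allow, and 0.6 after Benjamini-Hochberg adjustment.

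**Figure D3:**
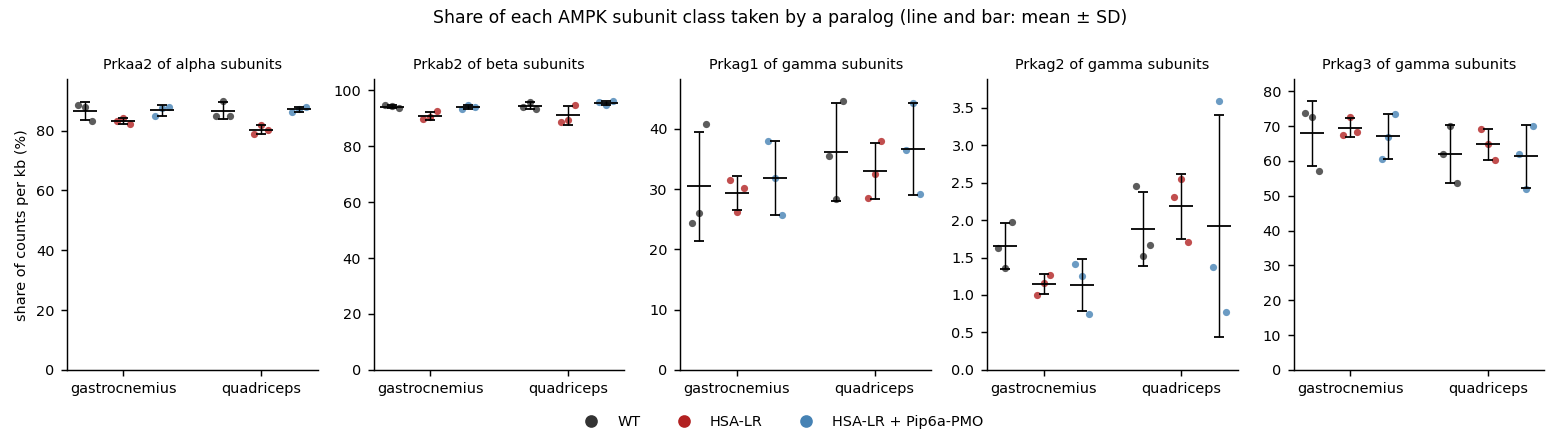
Share (%) of the counts per kb of the alpha, beta and gamma subunit genes taken by 1 paralog (vertical axis) in each library, by muscle, for WT (black), HSA-LR (red) and Pip6a-PMO (blue) mice, with mean and SD. Prkab2 stays at 88.7% or more of the beta class in every library, while the gamma class is split between Prkag3 and Prkag1.

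Stk11, the gene of LKB1, varied least of the 10 genes, 1.48-fold from lowest to highest library. In gastrocnemius it was at 175, 184 and 162 CPM in WT, 150, 139 and 147 CPM in HSA-LR, and 169, 174 and 206 CPM in Pip6a-PMO mice. In quadriceps it was at 188, 174 and 180 CPM in WT, 149, 140 and 152 CPM in HSA-LR, and 170, 154 and 183 CPM in Pip6a-PMO mice. The HSA-LR libraries were the lowest in both muscles.

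The fall of Stk11 was called in quadriceps (log2 -0.29 ± 0.083, edgeR adjusted P = 0.046) and not in gastrocnemius (log2 -0.27 ± 0.095, edgeR adjusted P = 0.11), and the rise with Pip6a-PMO in gastrocnemius (log2 0.34 ± 0.095, edgeR adjusted P = 0.073) and not in quadriceps (log2 0.20 ± 0.083, edgeR adjusted P = 0.16). The difference between muscles was itself not called in either case, in a test that did not pair the muscles by mouse. The quadriceps fall was lost in 4 of 9 left-out fits and without WT mice 2 and 3 (log2 -0.34), and the gastrocnemius rise in 6 of 9 left-out fits. This rise was called in 6 of 12 other settings of the test and not with the coverage covariate (log2 0.24, edgeR adjusted P = 0.16). The gastrocnemius fall passed the threshold with the coverage covariate (log2 -0.23, edgeR adjusted P = 0.097) and with the slow-fiber covariate (log2 -0.29, edgeR adjusted P = 0.0725).

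The annotation gives Ppargc1a alternative first exons on the minus strand of chromosome 5 (GRCm38), a proximal one at chr5:51553735-51553922 and a distal one at chr5:51567630-51567726, whose starts lie 13804 bp apart. Both hold a start codon and join the same second exon, so their proteins differ in the first residues. The 30 bases across each junction, from GENCODE M21 transcripts, show where reads tell them apart, with the end of the first exon in capitals and the shared second exon in lower case.
proximal first exon: TGGAGTGACATAGAGtgtgctgctctggtt
distal first exon: GATTCAATTTTGAAAtgtgctgctctggtt
The 30 bases from each start codon, which is in capitals, are also given.
proximal coding start: ATGgcttgggacatgtgcagccaagactct
distal coding start: ATGttgggattgtcatccatggattcaatt

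Ppargc1a as a whole was at 46.4, 35.9 and 51.8 CPM in WT quadriceps, 24.1, 32.4 and 32.9 CPM in HSA-LR, and 49.4, 59.4 and 33.8 CPM in Pip6a-PMO quadriceps. All HSA-LR libraries lay below the other groups, the highest HSA-LR library being close to the lowest treated one. The fall was log2 -0.58 ± 0.22 (edgeR adjusted P = 0.12) and the rise with Pip6a-PMO log2 0.68 ± 0.22 (edgeR adjusted P = 0.098), which was called in 3 of 9 left-out fits.

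Slow-fiber markers also differed between the quadriceps libraries. Myh7, Myl2, Myl3, Tnnt1, Tnni1, Tnnc1, Atp2a2, Tpm3 and Myh7b summed to 138 to 2313 CPM in Pip6a-PMO quadriceps, against 110 to 240 CPM in HSA-LR and 233 to 639 CPM in WT mice, and 0 of the 9 were at 0. Myh2, the myosin of oxidative fast fibers, was at 965 to 3554 CPM in Pip6a-PMO, 392 to 602 CPM in HSA-LR and 1287 to 1977 CPM in WT quadriceps. With the slow-fiber level of each library as a covariate, the change with Pip6a-PMO was log2 0.32 (edgeR adjusted P = 0.51).

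In gastrocnemius Ppargc1a was at 35.2, 36.0 and 42.8 CPM in WT, 33.3, 36.0 and 52.7 CPM in HSA-LR, and 85.0, 56.2 and 17.9 CPM in Pip6a-PMO mice. The treated libraries held both the highest and the lowest value, and neither comparison was called (log2 0.087 ± 0.43 and log2 0.39 ± 0.43). Pip6a-PMO mouse 1, the highest, also had a slow-fiber sum of 16880 CPM, where the other 8 gastrocnemius libraries had at most 6181 CPM. Pip6a-PMO mouse 3, the lowest, had the lowest 5′ to 3′ coverage (log2 ratio -2.39, against -2.05 to -1.84 in the other 17 libraries).

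The distal first exon of Ppargc1a was counted 22, 32 and 45 times in WT, 8, 6 and 39 times in HSA-LR, and 116, 49 and 6 times in Pip6a-PMO gastrocnemius. In quadriceps the counts were 45, 8 and 55 in WT, 1, 3 and 17 in HSA-LR, and 44, 40 and 11 in Pip6a-PMO mice. The groups overlapped in both muscles, and the lowest counts were in HSA-LR quadriceps. The proximal first exon ranged less, from 23 to 94 counts over all 18 libraries.

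As a share of the counts in both first exons, the distal one took 37.3% ± 22.8 (SD, n = 3) in WT, 9.86% ± 11.1 in HSA-LR and 29.9% ± 14.6 in Pip6a-PMO quadriceps, groups that overlapped. Bin 21, the larger bin of the distal exon, gave log2 -1.87 relative to its gene in HSA-LR against WT quadriceps (edgeR adjusted P = 1.0), so it was not called. It was 1 of the 2 member bins of that comparison with an unadjusted p under 0.05, and the distal counts spread widely between the mice of a group. A bin of 31 bp at chr5:51490091-51490121, annotated in some transcripts, had 0 to 16 counts.

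**Figure D4:**
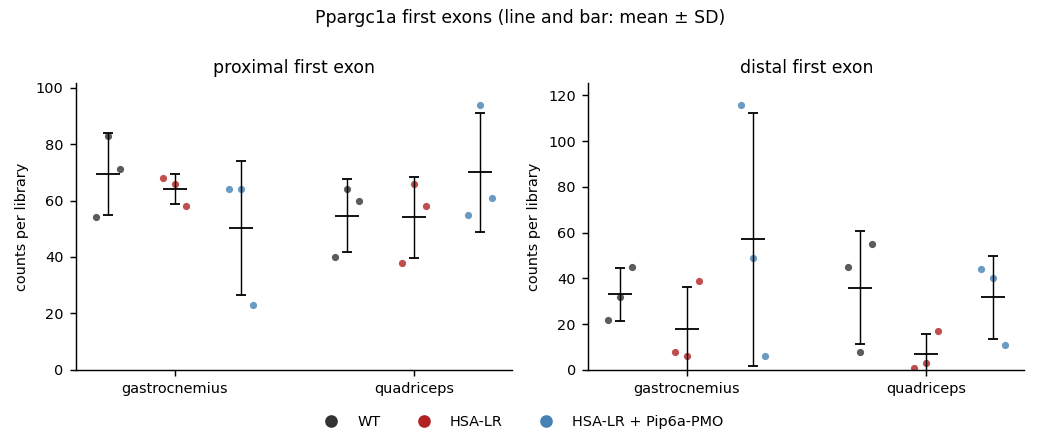
Raw counts per library (vertical axis) in the bins of the proximal (left) and distal (right) first exon of Ppargc1a, by muscle, for WT (black), HSA-LR (red) and Pip6a-PMO (blue) mice, with mean and SD. The distal exon spans 1 to 116 counts and the proximal exon 23 to 94 counts.

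Ppargc1b, the gene of PGC-1 beta, was highest in HSA-LR mice. In gastrocnemius it was at 4.76, 5.61 and 2.60 CPM in WT, 9.84, 8.63 and 7.46 CPM in HSA-LR, and 2.76, 3.31 and 4.01 CPM in Pip6a-PMO mice. The HSA-LR libraries were above all others. The rise in HSA-LR mice was 1.98-fold (log2 0.99 ± 0.26, edgeR adjusted P = 0.043) and the fall with Pip6a-PMO 2.56-fold (log2 -1.36 ± 0.26, edgeR adjusted P = 0.023), which held in all 9 left-out fits. The rise was lost without HSA-LR mouse 1 or 2 (edgeR adjusted P up to 0.14) and without WT mice 2 and 3 (log2 0.84, edgeR adjusted P = 0.14).

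In quadriceps Ppargc1b was at 8.78, 6.22 and 3.88 CPM in WT, 8.88, 10.8 and 9.01 CPM in HSA-LR, and 4.12, 5.14 and 5.43 CPM in Pip6a-PMO mice. The HSA-LR libraries were again the highest, the lowest of them next to WT mouse 1. The rise was not called (log2 0.61 ± 0.26, edgeR adjusted P = 0.16), and the fall with Pip6a-PMO was (log2 -0.96 ± 0.26, edgeR adjusted P = 0.058), in 5 of 9 left-out fits and not with the slow-fiber covariate (log2 -0.69, edgeR adjusted P = 0.28). The macrophage sum given with Prkaa1 was likewise highest in the HSA-LR libraries of both muscles, and in Pip6a-PMO gastrocnemius it was 28.2 to 36.7 CPM. The part of these cells in the Ppargc1b level was not tested.

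For the genes called between HSA-LR and WT mice, the share of the log2 change that was absent in Pip6a-PMO mice could be read from the change of Pip6a-PMO against WT. In gastrocnemius it was 78.3% for Prkab2, 104.5% for Prkag1, 45.8% for Prkab1, 30.7% for Prkag2 and 137.5% for Ppargc1b, where 100 percent would mean the WT level. In quadriceps it was 94.9% for Prkab2, 96.0% for Prkag1, 130.8% for Prkaa2, 69.3% for Stk11 and 60.3% for Prkaa1. Both terms of this ratio use the same WT mice, so it carries the error of both. Without WT mice 2 and 3 it was 379.8% for Prkaa2 in quadriceps, where the fall in HSA-LR mice shrank to log2 -0.15, and for the other genes it ran from 26.6% (Prkag2) to 161.5% (Ppargc1b) in gastrocnemius and from 56.0% (Stk11) to 103.1% (Prkab2) in quadriceps.

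Of the 10 genes, 0 differed between gastrocnemius and quadriceps in WT, HSA-LR or Pip6a-PMO mice, beside 0.297%, 2.21% and 1.47% of the 16167 genes tested. An unadjusted p under 0.05 was reached by 0, 2 and 2 members, beside 1437, 2171 and 2536 of all genes. DESeq2 called 0, 1 and 1 members, beside 341, 900 and 850 of all genes. The muscles came from the same mice, and with the mouse as a block Prkaa1 was lower in gastrocnemius than in quadriceps of HSA-LR mice (log2 -0.34, edgeR adjusted P = 0.056). With this block 3 genes were lower in gastrocnemius of Pip6a-PMO mice, namely Prkaa1 (log2 -0.35, edgeR adjusted P = 0.049), Prkaa2 (log2 -0.40, edgeR adjusted P = 0.091) and Ppargc1b (log2 -0.55, edgeR adjusted P = 0.064). Over all genes, the fit with this block called 1060 of 16167 in HSA-LR mice and 1501 in Pip6a-PMO mice. For 0 of 10 genes did the change between HSA-LR and WT mice, or between Pip6a-PMO and HSA-LR mice, differ between muscles in edgeR's interaction test. In that test 0 of the 16167 genes passed. An unadjusted p under 0.05 was reached by 0 members, beside 710 and 1271 of all genes. DESeq2 called 0 members, beside 24 and 26 of all genes. The interaction test did not pair the muscles of a mouse. With the mouse as a block, 5 of the 16167 genes passed for HSA-LR against WT mice and 0 for Pip6a-PMO against HSA-LR mice.

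Exon usage of the 10 genes was tested bin by bin, as the change of a bin relative to the rest of its gene. Of 168 member bins tested in gastrocnemius and 164 in quadriceps, 0 were called in any comparison by edgeR's diffSpliceDGE. Over all bins, 0.819% were called for HSA-LR against WT, 0.309% for Pip6a-PMO against HSA-LR and 0.0654% for Pip6a-PMO against WT in gastrocnemius, and 0.284%, 0.168% and 0.0353% in quadriceps. An unadjusted p under 0.05 was found for 8, 5 and 3 member bins in gastrocnemius and 2, 2 and 0 in quadriceps. Over all bins it was found for 6712, 5219 and 1696 of 172719 in gastrocnemius and 2794, 2693 and 1237 of 172858 in quadriceps. The smallest p in HSA-LR against WT gastrocnemius was that of Prkab2 bin 8 (log2 1.47 relative to the gene, edgeR adjusted P = 0.27), a bin that held 0.018% of the gene's counts in WT and 0.051% in HSA-LR mice.

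Of the 8 bins in gastrocnemius, 6 were exons of Prkaa2, whose pattern was looked at after its values were seen. The last exon of Prkaa2, chr4:105029874-105036330 (GRCm38, minus strand), is 6457 bp long and took most of the gene's counts. The other exons, 1512 bp in all, held 12.5% to 14.3% of the counts in HSA-LR gastrocnemius, against 3.80% to 9.11% in WT and 5.21% to 11.3% in Pip6a-PMO gastrocnemius. In quadriceps the groups overlapped, with means of 10.2% ± 5.3 in WT, 10.9% ± 5.2 in HSA-LR and 15.5% ± 3.5 in Pip6a-PMO mice (SD, n = 3). Over the 18 libraries the other exons varied 7.22-fold in CPM and the last exon 1.80-fold.

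In gastrocnemius the parts of Prkaa2 moved in opposite directions. The other exons were at 14.2 to 16.2 CPM in HSA-LR mice, above the 4.68 to 13.4 CPM of WT mice, while the last exon was at 97.0 to 106 CPM in HSA-LR and 118 to 146 CPM in WT mice. The Pip6a-PMO libraries, at 6.58 to 17.3 CPM in the other exons, overlapped both groups. In quadriceps the other exons were at 7.0 to 32.5 CPM in WT, 6.43 to 20.4 CPM in HSA-LR and 21.1 to 33.7 CPM in Pip6a-PMO mice. The 5′ to 3′ coverage (log2 ratio) was -1.94 to -1.90 in HSA-LR gastrocnemius, above the -2.04 to -1.96 of WT gastrocnemius. In quadriceps it was -2.05 to -1.89 in WT, -1.99 to -1.87 in HSA-LR and -1.91 to -1.84 in Pip6a-PMO mice. The part of coverage in the split of Prkaa2 counts between exons was not tested.

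**Figure D5:**
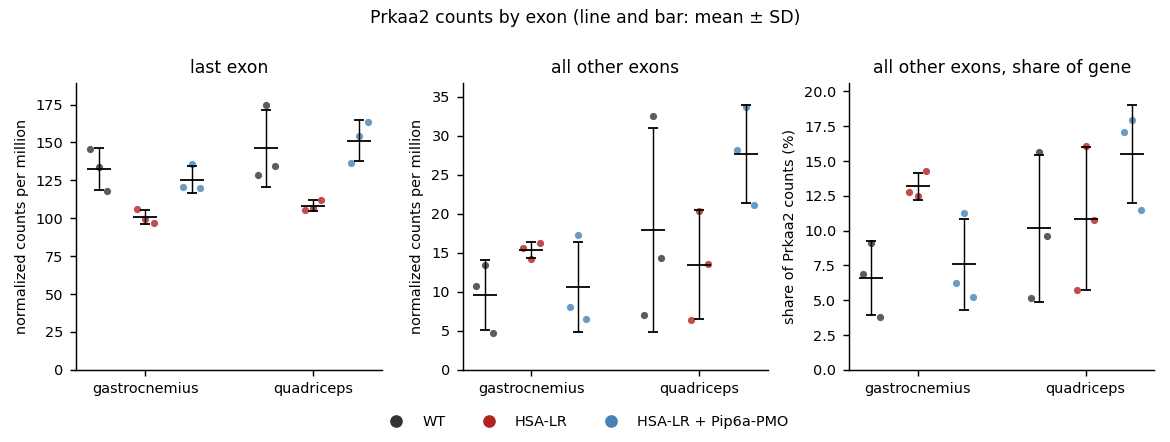
TMM-scaled CPM of the last exon (left) and of all other exons (middle) of Prkaa2, and the share (%) of its counts in the other exons (right), in each library, by muscle, for WT (black), HSA-LR (red) and Pip6a-PMO (blue) mice, with mean and SD. The other exons range from 4.68 to 33.7 CPM and the last exon from 97.0 to 175 CPM.

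Other annotated ends gave few counts. The first exon of the short Prkag2 transcripts, chr5:24908323-24908509, had 31 to 61 counts in WT, 7 to 32 in HSA-LR and 11 to 32 in Pip6a-PMO gastrocnemius, and its share of the gene was 3.26% ± 1.1, 2.36% ± 2.0 and 2.64% ± 0.73 (SD, n = 3). The most distal Prkag2 first exon held 1.21% ± 0.33, 1.62% ± 0.90 and 1.37% ± 0.051. The Stk11 bin at chr10:80128391-80128512, an alternative last exon, had 3 to 29 counts over all libraries, where its bin at chr10:80130256-80130469 had 1091 to 1621. The longest run of CTG in any annotated transcript of the members was 2 repeats, and 57.2% of the 55341 genes of GENCODE M21 have a run at least that long.

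Lists of genes around AMPK and PGC-1 are read against the 15.5% of all genes called between HSA-LR and WT gastrocnemius and the 20.3% in quadriceps. These lists, too, were chosen with earlier results of these data known. In all, 6 list genes were called in gastrocnemius and 10 in quadriceps. Without WT mice 2 and 3 the directions were kept, and fewer of these genes were called in both muscles, as were fewer of all genes.

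Of 5 LKB1 partners and AMPK upstream kinases, 0 were called between HSA-LR and WT mice in either muscle, and Cab39, the scaffold of the LKB1 complex, rose with Pip6a-PMO in quadriceps (log2 0.56, edgeR adjusted P = 0.066). Of 11 other kinases activated by LKB1, Mark2 (log2 -0.38, edgeR adjusted P = 0.039) and Sik1 (log2 -1.09, edgeR adjusted P = 0.065) fell in HSA-LR gastrocnemius and Mark2 fell in quadriceps (log2 -0.30, edgeR adjusted P = 0.029). Mark2 rose with Pip6a-PMO in quadriceps (log2 0.27, edgeR adjusted P = 0.059). Sik1 was at 65.7 to 99.4 CPM in WT, 17.96 to 49.8 CPM in HSA-LR and 25.3 to 31.3 CPM in Pip6a-PMO gastrocnemius, and was also lower in Pip6a-PMO than in WT mice (log2 -1.53, edgeR adjusted P = 0.099), a call lost without WT mice 2 and 3 (edgeR adjusted P = 0.28).

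Between muscles, Map3k7, a kinase upstream of AMPK, was lower in gastrocnemius than in quadriceps of Pip6a-PMO mice (log2 -0.44, edgeR adjusted P = 0.098). Acaca, the acetyl-CoA carboxylase of fatty acid synthesis and an AMPK substrate, was lower in gastrocnemius than in quadriceps of HSA-LR mice (log2 -3.62, edgeR adjusted P = 0.076), at 11.4 to 13.6 against 7.69 to 339.8 CPM. The summed adipocyte markers also spread most in HSA-LR quadriceps, from 25.7 to 667.5 CPM, against 41.4 to 105 CPM in HSA-LR gastrocnemius, and their part in the Acaca level was not tested.

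Of 16 AMPK substrates and binding regulators, 2 were called between HSA-LR and WT gastrocnemius and 4 in quadriceps, near the shares of all genes. Crtc2, a CREB coactivator, was at 26.4 to 28.8 CPM in WT, 15.9 to 17.5 CPM in HSA-LR and 23.2 to 26.8 CPM in Pip6a-PMO gastrocnemius. It fell in HSA-LR mice (log2 -0.75, edgeR adjusted P = 0.00091) and rose with Pip6a-PMO (log2 0.57, edgeR adjusted P = 0.0087), and likewise in quadriceps (log2 -0.70 and 0.56, edgeR adjusted P = 0.0086 and 0.036).

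Tbc1d1 and Tbc1d4, related Rab GTPase-activating proteins that restrain glucose transporter traffic until they are phosphorylated, went opposite ways. Tbc1d1 was at 31.6 to 34.1 CPM in WT, 91.4 to 237 CPM in HSA-LR and 45.6 to 103 CPM in Pip6a-PMO quadriceps. It rose in HSA-LR quadriceps (log2 2.15, edgeR adjusted P = 0.0088) and gastrocnemius (log2 2.02, edgeR adjusted P = 0.0033), and fell with Pip6a-PMO in gastrocnemius (log2 -1.62, edgeR adjusted P = 0.016). Tbc1d4 fell in HSA-LR quadriceps (log2 -1.04, edgeR adjusted P = 0.014) and rose there with Pip6a-PMO (log2 0.98, edgeR adjusted P = 0.032). Flcn, an AMPK-binding protein, fell in HSA-LR quadriceps (log2 -0.43, edgeR adjusted P = 0.086), and Hmgcs1, of sterol synthesis, fell with Pip6a-PMO in gastrocnemius (log2 -0.23, edgeR adjusted P = 0.089).

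Of 17 factors that work with PGC-1, 1 was called between HSA-LR and WT mice in each muscle, beside 15.5% and 20.3% of all genes, the muscle transcription factor Mef2c. It was at 479 to 561 CPM in WT, 797 to 831 CPM in HSA-LR and 424 to 565 CPM in Pip6a-PMO gastrocnemius, a rise of log2 0.61 in HSA-LR mice (edgeR adjusted P = 0.013) and a fall of log2 -0.67 with Pip6a-PMO (edgeR adjusted P = 0.017). In quadriceps the changes were log2 0.54 (edgeR adjusted P = 0.027) and log2 -0.44 (edgeR adjusted P = 0.076). Nrf1, a factor for mitochondrial genes, rose with Pip6a-PMO in gastrocnemius (log2 0.41, edgeR adjusted P = 0.031).

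Of 19 genes that PGC-1 is known to induce, 1 was called between HSA-LR and WT gastrocnemius and 4 in quadriceps, the latter close to the 20.3% of all genes. Myoglobin, Mb, rose in HSA-LR gastrocnemius (log2 1.41, edgeR adjusted P = 0.033) and quadriceps (log2 1.05, edgeR adjusted P = 0.029) and fell with Pip6a-PMO in gastrocnemius (log2 -1.11, edgeR adjusted P = 0.099). Fndc5, the precursor of irisin, fell in HSA-LR quadriceps (log2 -1.94, edgeR adjusted P = 0.0052) and rose there with Pip6a-PMO (log2 1.81, edgeR adjusted P = 0.015), and the mitochondrial creatine kinase Ckmt2 did the same (log2 -1.01 and 1.32, edgeR adjusted P = 0.028 and 0.020). Tfb2m, of mitochondrial transcription, fell in HSA-LR quadriceps (log2 -0.25, edgeR adjusted P = 0.060). The median change of the 19 genes was log2 -0.045 in HSA-LR gastrocnemius and -0.12 in quadriceps, against -0.010 and 0.0053 over all genes.

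By the Pearson correlation of log2 CPM over the 18 libraries, which share mice and groups, genes with patterns most like each member, out of 15263, are named as a description. They were Kbtbd12 (r = 0.943) for Prkab2, D10Jhu81e (0.955) and Timm22 (0.938) for Prkag1, and Tank (0.945) for Prkaa1. Synrg (0.938) and Ubr3 (0.937) were closest to Prkaa2, Pcca (0.939) and Rab20 (0.915) to Ppargc1b, and Ston1 (0.915) and Mavs (0.877) to Ppargc1a. For the other members they were, for Prkab1, Ccnd2 (0.918) and Tle3 (0.899), for Stk11 Malsu1 (0.912) and Mlf2 (0.902), for Prkag3 Tada2a (0.896) and Eepd1 (0.873), and for Prkag2 4930480K23Rik (0.849) and Snap29 (0.828).

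By median CPM per kb of exon over all libraries, Prkab2 (65.5) and Prkag3 (55.7) came first, followed by Stk11 (37.0), Prkag1 (30.7) and Prkaa2 (16.6). Ppargc1a (5.46), Prkab1 (3.97), Prkaa1 (3.07), Ppargc1b (1.38) and Prkag2 (1.28) were the lowest. The ranges of neighbours in this order overlapped, except those of Prkaa2 (14.1 to 26.03) and Ppargc1a (2.72 to 12.9), so ranges over all libraries did not resolve the order of the others. Within every library, however, Prkag3 was above Stk11, Prkag1 above Prkaa2 and Prkaa1 above Ppargc1b. A read pair is counted in each bin it overlaps, which raises genes with short bins: in its largest bin, of 143 bp, Stk11 had 106 CPM per kb.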

How the data were processed

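Per the labels, RNA was extracted with Trizol and DNase, and polyA-selected stranded libraries were made. The submitters' processing notes name CASAVA, HISAT, featureCounts 1.5.0 and GRCm38. The authors deposited raw counts per exon bin, in which a read pair counts once in each bin it overlaps, and gene counts were summed from them (2.82% to 4.14% of counts fell in entries that name no gene and were left out). Samples were grouped by the labels. Depth was 98916844 to 143135976 counts per library. The p-values measure the spread between 3 mice per group.

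Gene counts were tested with edgeR 4.0.16 in R 4.3.3 (quasi-likelihood test, TMM, filterByExpr with a minimum count of 10 and a minimum total of 15) on the 9 libraries of a muscle with group as a factor, with Benjamini-Hochberg adjustment over all genes and calls at an adjusted p under 0.1. Contrasts of muscles used all 18 libraries. Bins were tested with diffSpliceDGE, and shares with exact permutation tests. The functions were tested on simulated gastrocnemius counts at the adjusted p threshold of 0.1. The simulation gave every gene the same dispersion between libraries and changed only a small set of genes, in the HSA-LR libraries. Its rates therefore need not hold for members that spread more between mice. The gene test recovered 87% of changes of log2 1, and 13.7% of its calls were false. The bin test recovered 62% of such changes, and 27.5% of its calls were false. Of changes of log2 2, each test recovered 96%. Alternatives covered left-out libraries, the replicate block, other normalizations and filters, DESeq2 1.42.0, limma 3.58.1 voom, and covariates for coverage and slow-fiber level, and leaving out WT mice 2 and 3 was chosen after seeing the data.

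Bin coordinates and lengths come from GENCODE M21, where 41124 of 46725 genes have the same version and bin number. Prkaa1 and Prkag1 do not, so their length is that of 1 transcript with as many exons as bins. Muscles pair by mouse, from the mouse numbers of the samples: the same mouse correlated between muscles with a median r of 0.252 over 9 pairs and different mice with -0.1065 over 18. Named are the 10 members in every comparison, the bins of their smallest p and alternative ends, and the called genes of the pathway lists, up to 5 by smallest p. The members and lists were chosen with earlier results of these data known. Some genes among those most like a member are not reported here.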

Additional observations from a re-analysis of the deposited data

How the results depend on the processing

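Leaving out 1 library at a time moved the number of members called from 5 to between 3 and 7 for HSA-LR against WT gastrocnemius (3 without HSA-LR mouse 2), from 5 to between 2 and 5 in quadriceps (2 without HSA-LR mouse 1, 3 without WT mouse 3 or HSA-LR mouse 2 or 3), from 4 to between 2 and 4 for Pip6a-PMO against HSA-LR gastrocnemius (2 without HSA-LR mouse 2 or 3), from 5 to between 1 and 5 in quadriceps (1 without HSA-LR mouse 1, 2 without HSA-LR mouse 2 or Pip6a-PMO mouse 1 or 2) and from 1 to 0 in all fits for Pip6a-PMO against WT gastrocnemius. For HSA-LR gastrocnemius against quadriceps it was 0 to 1, with 1 without Pip6a-PMO mouse 3. The calls over all genes moved too. They went from 2427 to between 1357 and 3538 for HSA-LR against WT gastrocnemius, and from 3169 to between 2050 and 3373 in quadriceps. For Pip6a-PMO against HSA-LR they went from 1566 to between 428 and 1877 in gastrocnemius, and from 2143 to between 691 and 2784 in quadriceps. For Pip6a-PMO against WT gastrocnemius they went from 163 to between 47 and 195. The share comparisons that did not overlap went from 6 to between 6 and 14 of 48, with 11 to 14 without HSA-LR mouse 3 or Pip6a-PMO mouse 3 in gastrocnemius, or WT mouse 2 or HSA-LR mouse 3 in quadriceps. Without WT mice 2 and 3, fewer members and fewer of all genes were called for HSA-LR against WT in both muscles. The same held for Pip6a-PMO against WT gastrocnemius. The number of members called there was 0 with 2 groups only, the largest bin, at least 10 counts in every library, RLE, limma voom and the coverage covariate. Over all genes, 56 to 215 were called in these settings. Pip6a-PMO against HSA-LR quadriceps gave 1 call with the coverage covariate and 2 with the slow-fiber covariate. Over all genes the calls there were 524 and 1018, against 2143 in the main fit. HSA-LR gastrocnemius against quadriceps gave 1 call with the libraries of 1 condition only and with DESeq2, and Pip6a-PMO gastrocnemius against quadriceps gave 1 with DESeq2. Over all genes these fits called 475, 900 and 850. With 2 groups only, 1 exon bin of the members was called (Prkab2 bin 8 in HSA-LR against WT gastrocnemius, log2 1.47, edgeR adjusted P = 0.074). Over all genes that fit called 2110 of 169295 bins. The cause was not tested, beyond the smaller number of samples in the fits that left some out.

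The replicate block was a formality between groups, whose mice share only a number: same-numbered mice correlated between -0.274 and 0.259. With this block, Pip6a-PMO against WT gastrocnemius gave 0 calls among the members and 63 over all genes. The number of members called stayed within 1.5 times in the other comparisons of groups. With the mouse as block, which pairs the muscles, HSA-LR gastrocnemius against quadriceps gave 1 call and Pip6a-PMO 3, beside 1060 and 1501 of 16167 genes.

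Directions turned only for changes that were not called, with log2 values as follows. Over the left-out fits Ppargc1a in gastrocnemius ran from -0.15 to 0.21 for HSA-LR against WT and -0.13 to 0.80 for Pip6a-PMO against HSA-LR. In quadriceps, HSA-LR against WT, Prkag2 ran from -0.30 to 0.086. For Pip6a-PMO against HSA-LR quadriceps, Prkab1 ran from -0.21 to 0.095 and Prkag2 from -0.58 to 0.27. For Pip6a-PMO against WT, Prkag1 ran from -0.045 to 0.11 in gastrocnemius and -0.056 to 0.036 in quadriceps, and Prkab2 from -0.23 to 0.13 in quadriceps. With the largest bin, Ppargc1a was -0.067 (HSA-LR against WT gastrocnemius) and Prkag2 0.16 (Pip6a-PMO against HSA-LR quadriceps). With the coverage covariate, Ppargc1a was -0.29 for HSA-LR against WT gastrocnemius, and for Pip6a-PMO against WT quadriceps Prkaa2 was -0.12 and Stk11 0.0071. With the slow-fiber covariate, Ppargc1a was -0.048 (Pip6a-PMO against HSA-LR gastrocnemius), Prkag2 0.18 (HSA-LR against WT quadriceps) and Prkab2 0.095 (Pip6a-PMO against WT quadriceps). With limma voom Prkab1 was 0.0014 (Pip6a-PMO against HSA-LR quadriceps). Without WT mice 2 and 3, Prkab2 was 0.029 and Prkag1 0.00065 for Pip6a-PMO against WT quadriceps. The members had at least 364 counts in a library, and the Ppargc1a first exons at most 116, where the part of counting depth in the spread was not tested.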
